A study of Mus musculus with 3 samples.

Results

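The 9 genes described here are chemokine and chemoattractant receptors, Ccr1, Ccr2, Cx3cr1, Cxcr4, Cxcr2, Ccrl2, Fpr1, Fpr2 and Cmklr1. They were taken as a list of names, chosen with earlier results of these data known. All 9 of them were among the 22238 genes that were quantified in each of the 3 libraries. Chemoattractant receptors are cell surface proteins that couple to G proteins and let leukocytes follow gradients of chemokines, complement fragments or bacterial peptides. Ccr2 lets classical monocytes leave the bone marrow and enter inflamed tissue, Cx3cr1 is the receptor of fractalkine and is highly expressed in non-classical monocytes and microglia, and Cxcr4, the receptor of Cxcl12, holds myeloid cells in the marrow.

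RNA-Seq was done on sorted cells of wild-type (WT) female C57BL/6J mice aged 10 to 12 weeks with EAE, a model of multiple sclerosis. All mice received 200 µg of MOG peptide in complete Freund's adjuvant and 250 ng of pertussis toxin at 2 and 24 h, and cells were taken at days 14 to 15, so every library comes from immunized animals and there is no unimmunized group. Bone marrow monocytes were CD45+ CD11b+ Ly6Chi, negative for Ly6G and CD11c, and came from 13 mice in 2 experiments. Spinal cord monocytes were CD45+ CD11b+ CD64+ Ly6Chi Ly6G-, and monocyte-derived APCs had low or no Ly6C in the same gate, with cells of intermediate Ly6C left out. These cells came from 18 mice in 3 experiments. Spinal cords were digested with collagenase and DNase and run on a Percoll gradient. Bone marrow was flushed, and its monocytes were enriched with a kit before sorting. In comparisons with bone marrow monocytes, the cell population, its tissue and this preparation therefore cannot be told apart. The APC library carries a source label that names the bone marrow, whereas its title and its tissue label name the spinal cord, and the latter were followed. Each population was 1 pooled library, so no difference has a replicate check and no p-value can be given.

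The libraries held 26116604 to 32115725 reads over the common genes, which gives tight counting intervals for all but the rarest receptors. Levels are TPM, which corrects for transcript length and library size, rescaled to the same sum over the common genes, with 95% Wilson intervals. Fold changes are medians of a posterior of scaled reads with 98% intervals. A gene was called where this interval lay beyond a 2-fold change and its TPM was over 3 in 1 of the 2 libraries. Both kinds of interval cover counting error alone, and reads copied by PCR are not separate molecules. In bulk RNA, fewer cells that express a gene and less RNA per cell cannot be told apart. The classical monocyte genes Ly6c2, Plac8, Fcgr1, Csf1r and Itgam were above 3 TPM in each library. The 9 lymphocyte markers summed to 0.610, 18.6 and 28.7 TPM (bone marrow monocytes first, then spinal cord monocytes, then APCs, as in every series of 3 values), and the 6 markers of CNS-associated macrophages to 15.7, 36.8 and 51.1 TPM.

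The receptor mRNA of bone marrow monocytes was mostly Ccr2, and that of both spinal cord populations was mostly Ccrl2 and Cxcr4. Ccr2 made up 66.4% of the summed TPM of the 9 genes in the bone marrow, 10.1% in spinal cord monocytes and 6.08% in APCs. Ccrl2 went the other way, from 0.40% to 36.8% and 40.6%. Cxcr4 came next after the leading gene in each library, with 12.8%, 23.0% and 23.9%. The summed TPM of all 9 genes was 2455, 2969 and 2281. Without Ccr2, the other 8 genes summed to 826 TPM in the bone marrow, and to 2670 and 2142 TPM in the spinal cord populations.

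**Figure D1:**
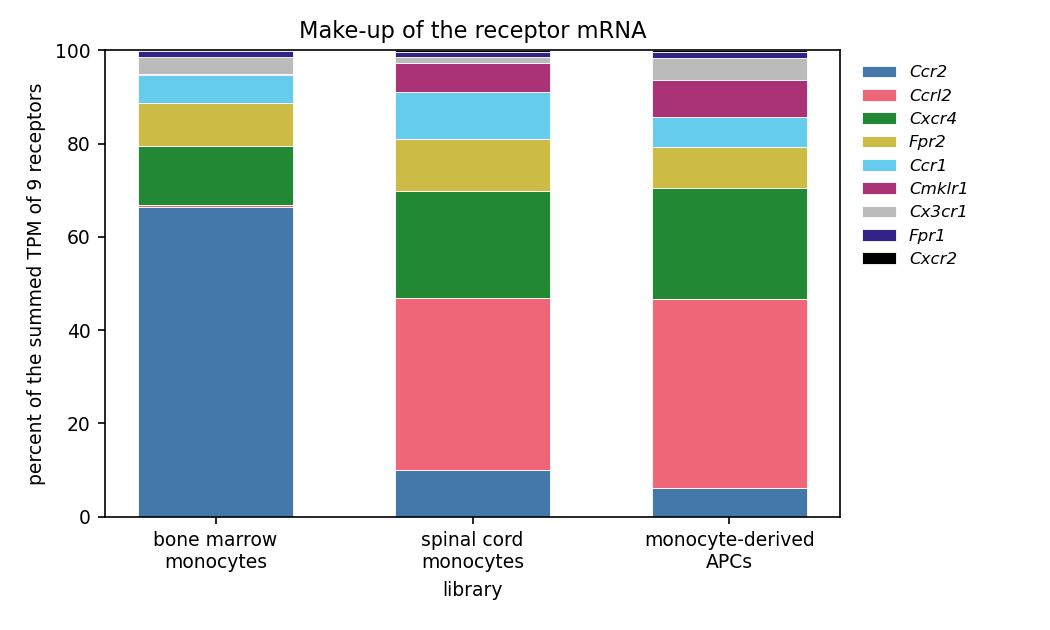
Stacked bars of the share (percent) that each of the 9 receptors takes of their summed TPM, 1 bar for each library. Ccr2 fills 66.4% of the bone marrow bar, and Ccrl2 fills 36.8% and 40.6% of the 2 spinal cord bars.

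In spinal cord against bone marrow monocytes, 5 of the 9 receptors were called higher, where 13.6% of all 10072 active genes were (24.6% in either direction). These were Ccr1, Cxcr4, Cxcr2, Ccrl2 and Cmklr1, of which Cxcr2 passed the TPM threshold in spinal cord monocytes only. Ccr2 was the 1 receptor called lower, where 11.0% of all active genes were. Cx3cr1, Fpr1 and Fpr2 were not called. The median log2 fold change of the 9 genes was 1.27, beside -0.17 over all active genes. Because the 9 genes were chosen with earlier results known, the counts and medians only describe them and do not test for an excess. From spinal cord monocytes to APCs, where 3.61% of 9734 active genes were called in either direction, Cx3cr1 was called higher and Ccr2 lower. The other 7 receptors were not called, and the median of the 9 was -0.33 beside -0.03 over all active genes. In APCs against bone marrow monocytes, where 14.0% of active genes were called higher, 11.7% lower and 25.8% in either direction, Cxcr4, Cxcr2, Ccrl2 and Cmklr1 were called higher and Ccr2 lower, 4 and 1 of the 9. Each library enters a pair of these comparisons, so they are not independent.

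**Figure D2:**
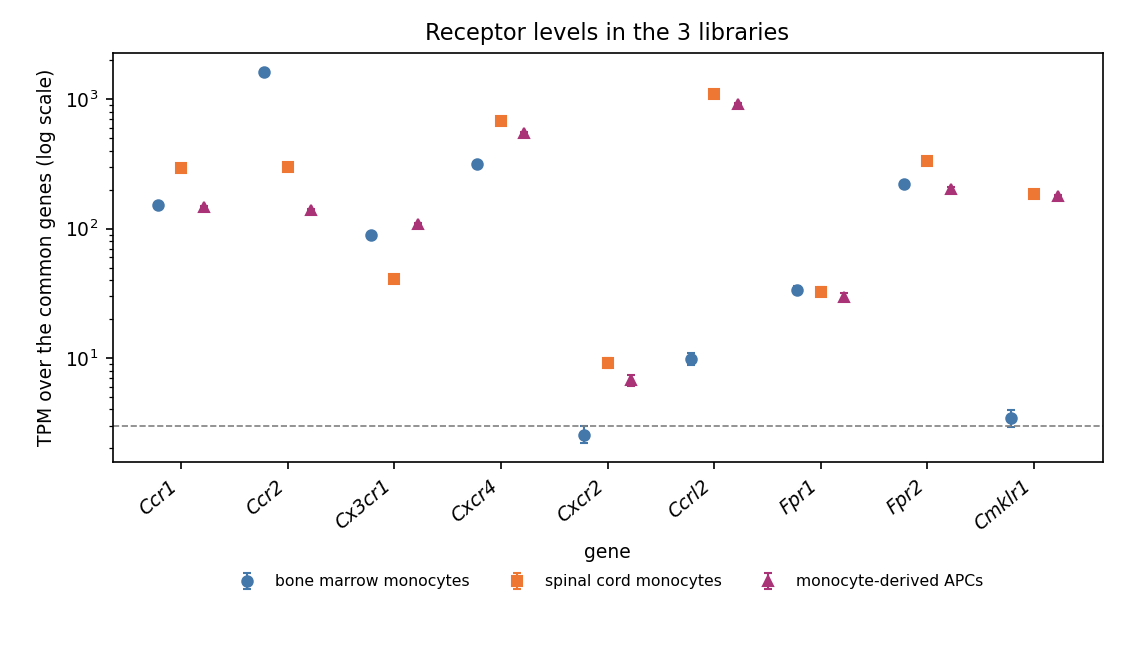
TPM over the common genes (log axis) of each receptor in bone marrow monocytes (circles), spinal cord monocytes (squares) and APCs (triangles), with 95% counting intervals, 1 library each. The dashed line is the threshold of 3 TPM. Ccrl2 and Cmklr1 rise from 9.82 and 3.42 TPM in the bone marrow, and Ccr2 falls from 1629 TPM.

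**Figure D3:**
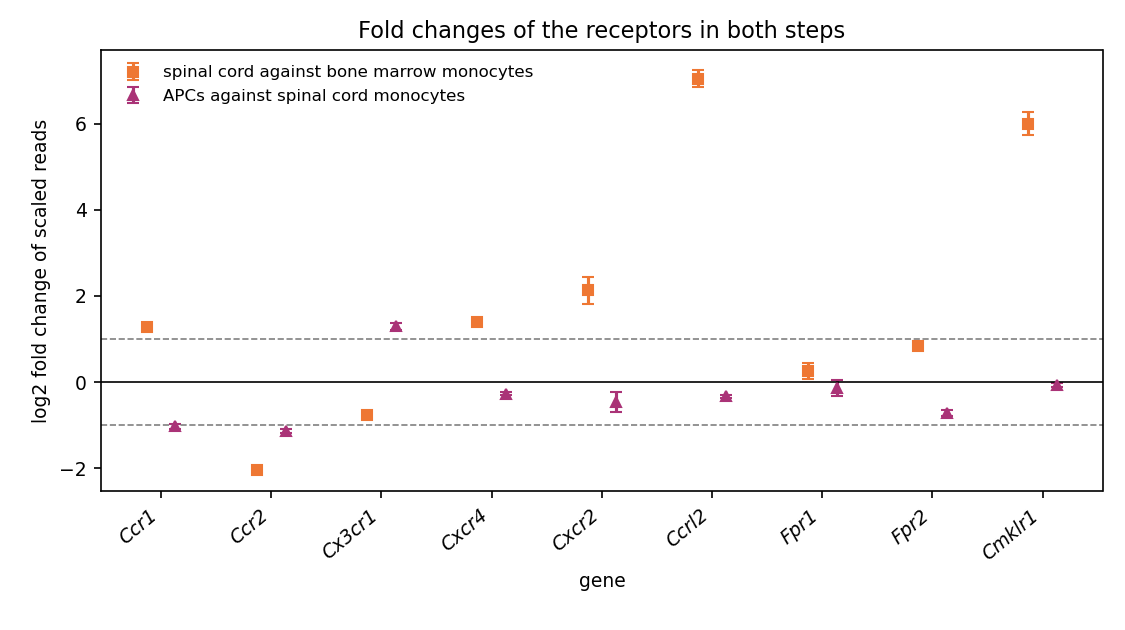
Log2 fold change of scaled reads of each receptor, for spinal cord against bone marrow monocytes (squares) and APCs against spinal cord monocytes (triangles), with 98% counting intervals. Dashed lines mark a 2-fold change. In the second comparison, only Cx3cr1 lies above the upper line.

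The promoter windows of Ccr2, Ccrl2 and Cxcr4 (RefSeq, GRCm38.p6) are shown because these 3 genes held most of the receptor mRNA. Each runs 5′ to 3′ on the strand of the gene from 250 bases before to 50 bases after the start annotated in RefSeq. This start can differ from that of the gene coordinates given below, which are from GENCODE. The Ccr2 window begins at 124101933 and the GENCODE span at 124101950, so most of this window lies inside that span. The windows of Cx3cr1 and Cmklr1 lie wholly inside theirs. Capitals mark the letters of the motifs found.
Ccr2, chr9:124101933-124102232, plus strand: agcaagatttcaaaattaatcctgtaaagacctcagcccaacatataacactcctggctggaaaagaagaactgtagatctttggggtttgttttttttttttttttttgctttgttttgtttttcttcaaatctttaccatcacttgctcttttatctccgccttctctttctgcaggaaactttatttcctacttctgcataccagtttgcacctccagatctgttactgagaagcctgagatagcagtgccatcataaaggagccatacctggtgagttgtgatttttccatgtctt
Ccrl2, first of 3 overlapping windows, chr9:111057469-111057768, minus strand: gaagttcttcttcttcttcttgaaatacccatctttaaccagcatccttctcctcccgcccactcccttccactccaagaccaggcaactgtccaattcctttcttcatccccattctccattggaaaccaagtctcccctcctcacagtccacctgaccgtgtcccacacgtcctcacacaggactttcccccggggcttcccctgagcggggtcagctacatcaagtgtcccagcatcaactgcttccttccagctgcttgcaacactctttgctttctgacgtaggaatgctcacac
Cxcr4, chr1:128592250-128592549, minus strand: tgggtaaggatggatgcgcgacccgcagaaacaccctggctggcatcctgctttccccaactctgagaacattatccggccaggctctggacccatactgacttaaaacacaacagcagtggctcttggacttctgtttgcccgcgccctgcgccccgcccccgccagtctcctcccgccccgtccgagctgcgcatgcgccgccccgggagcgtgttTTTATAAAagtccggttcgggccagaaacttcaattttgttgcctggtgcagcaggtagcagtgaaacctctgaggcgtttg
The motifs searched on both strands were GAGGAAGT for PU.1, TGANTCA for AP-1, GGGA and TTTCC with any base between them for NF-kB, a pair of GAAA with any 2 bases between them for the interferon-stimulated response element, and TATAAA. Cxcr4 held TATAAA with its first base 30 bases before the start, overlapping with a match on the opposite strand, and so did windows of Fpr1 and Fpr2, at 227 and 130 bases before the start. Among 32851 promoter windows of the same length, 13.6% held TATAAA, 7.81% the AP-1 letters, 3.44% the interferon element, 3.20% the PU.1 letters and 0.411% the NF-kB letters. None of the 11 windows of the 9 receptors held the other 4 motifs, which says only that these letters are not in these windows.

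Ccr2 (ENSMUSG00000049103.14) lies on chromosome 9 of GRCm38, chr9:124101950-124113557, in 1 stretch with other CC receptor genes. It had 103692, 18305 and 9270 reads, or 1629, 299 and 139 TPM. It was the receptor with the most mRNA in the bone marrow, rank 100 of all genes there and rank 894 in APCs. Its RNA was 4.12-fold lower in spinal cord than in bone marrow monocytes (98% bounds 4.04 to 4.2) and 2.19-fold lower in APCs than in spinal cord monocytes (98% bounds 2.12 to 2.25). The second call did not hold on reads divided by effective length, where the log2 fold change was -1.02 (98% bounds -1.07 to -0.98). Set against bone marrow monocytes directly, APCs had 8.91-fold less (98% bounds 8.69 to 9.14).

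Ccr1 and Ccr2 lie in a run of CC chemokine receptor genes on chromosome 9, and were called in opposite directions in spinal cord against bone marrow monocytes. Between them, Ccr3, the eotaxin receptor, had 0, 8 and 22 reads in the 3 libraries, and Ccr1l1 had 3, 1 and 1 reads. CC receptor genes are close paralogs, and reads can be split between them.

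Ccr1 (ENSMUSG00000025804.5, chr9:123962124-123968692) encodes a receptor of Ccl3, Ccl5 and other inflammatory CC chemokines. It had 8334, 14611 and 7933 reads, or 152 TPM (95% bounds 148 to 155) in the bone marrow, 295 TPM (95% bounds 290.2 to 299.7) in spinal cord monocytes and 147 TPM (95% bounds 144 to 151) in APCs. Its level was highest in spinal cord monocytes, and the intervals of bone marrow monocytes and APCs overlapped. The log2 fold change was 1.27 (98% bounds 1.22 to 1.32) into the spinal cord. With all genes of the monocyte libraries used for scaling it was 1.05 (98% bounds 1.0 to 1.09) and no longer called, and on TPM it was 0.96. To APCs it was -1.03 (98% bounds -1.08 to -0.98), so that the interval included a 2-fold change and the gene was not called.

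Cx3cr1 (ENSMUSG00000052336.7, chr9:119901616-120069879) had its lowest level in spinal cord monocytes, unlike the other 8 receptors. It had 6325, 2733 and 7419 reads, or 88.5, 40.4 and 108 TPM, and the 95% intervals of the 3 levels did not overlap. From bone marrow to spinal cord monocytes its log2 fold change was -0.75 (98% bounds -0.83 to -0.67), which was not called, and -1.11 on TPM. From spinal cord monocytes to APCs it rose 2.45-fold (98% bounds 2.33 to 2.58), and it was rank 208 from the top among 9734 active genes. The ratio of Ccr2 to Cx3cr1 TPM, a pair whose balance separates classical from non-classical monocytes, was 18.4, 7.38 and 1.28.

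Genes of other cells that express Cx3cr1 were read beside it. Of 9 microglia markers, 1, 8 and 9 were above 3 TPM, and their summed level was 13.9, 162 and 441 TPM. Among them, Tmem119 had 77, 973 and 2704 reads, and Sall1 had 0 reads in the bone marrow. From spinal cord monocytes to APCs the microglia markers and Cx3cr1 were both higher. In the first step, the markers were higher and Cx3cr1 had the lower level in the spinal cord. Of 6 non-classical monocyte markers, the summed level was 173, 524 and 391 TPM, or 132, 32.8 and 33.6 TPM without Nr4a1. Among them, Spn had 118, 9.43 and 14.7 TPM, and Cd300e was at or under 1.59 TPM throughout. Ace had 2.20, 7.62 and 4.71 TPM, Treml4 7.58, 10.6 and 5.18 TPM, and Eno3 4.34, 4.93 and 7.35 TPM. The lower sum without Nr4a1 in the spinal cord was thus that of Spn. The spinal cord gate took cells with high CD45, which was meant to leave microglia out. The paper saw slightly higher Tmem119 and P2ry12 in APCs, could not exclude a few microglia and estimated their share from Tmem119. The part of microglia or non-classical monocytes in the rise of Cx3cr1 in APCs was not tested. The annotated span of Cx3cr1 overlaps 9 other genes, of which Csrnp1 had 580, 21353 and 13832 reads, a different order from that of Cx3cr1.

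Cxcr4 (ENSMUSG00000045382.6, chr1:128588199-128592293) was the second most abundant of the 9 receptors in every library. It had 8557, 16402 and 15131 reads, or 315 TPM (95% bounds 308.5 to 322) in the bone marrow, 684 TPM (95% bounds 674 to 695) in spinal cord monocytes and 544 TPM (95% bounds 536 to 553) in APCs. Spinal cord monocytes had 2.64-fold more than bone marrow monocytes (98% bounds 2.56 to 2.72). In APCs the log2 fold change was -0.26 (98% bounds -0.30 to -0.23), and it was not called. T cells also express Cxcr4. Of the 9 lymphocyte markers, 0, 3 and 3 were above 3 TPM, and Cd3e had 0.0389, 6.74 and 11.3 TPM. The part of lymphocytes in the level of Cxcr4 was not tested.

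Cxcr2 (ENSMUSG00000026180.8, chr1:74153989-74161246), the receptor by which neutrophils respond to Cxcl1 and Cxcl2, was the rarest of the 9 receptors in all 3 libraries. It had 153, 488 and 394 reads, or 2.56 TPM (95% bounds 2.19 to 3.0), 9.10 TPM (95% bounds 8.32 to 9.94) and 6.75 TPM (95% bounds 6.12 to 7.45). In the bone marrow its interval overlapped that of Cmklr1, at 3.42 TPM. It rose 4.37-fold (98% bounds 3.54 to 5.45) into the spinal cord, and its log2 fold change to APCs was -0.46 (98% bounds -0.68 to -0.23). Of 11 neutrophil markers, 8, 10 and 10 were above 3 TPM, and their sum was 8898, 1475 and 1526 TPM. The markers differed among themselves. Highest in the bone marrow were S100a8, S100a9, Lcn2 and Mmp8, at 4471, 2244, 1038.5 and 707 TPM, and these made up most of the sum there. Ly6g had 2.57, 1.71 and 1.64 TPM and Retnlg had 1.77, 16.7 and 57.9 TPM, and none of the 11 markers was at 0 reads in any library. Both gates were negative for Ly6G. The part of neutrophils in the level of Cxcr2 was not tested.

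**Figure D4:**
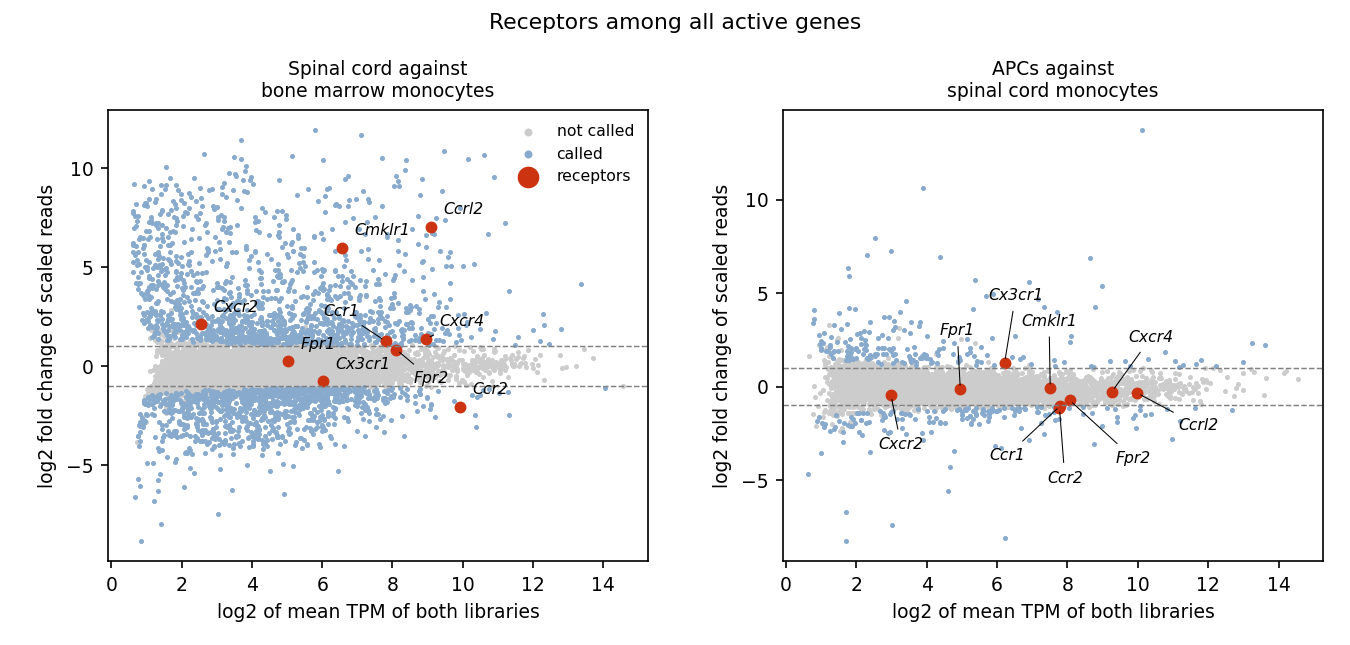
Log2 fold change of scaled reads against log2 of the mean TPM of both libraries, for all active genes of each comparison (grey, not called, and blue, called) and the 9 receptors (red). Ccrl2 and Cmklr1 lie at 7.04 and 5.99 in the left panel, and in the right panel 7 of the 9 receptors lie among the genes not called.

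Ccrl2 and Cmklr1, which bind chemerin, a chemoattractant for macrophages and dendritic cells, had the largest rises of the 9 genes from bone marrow to spinal cord monocytes. Ccrl2 is an atypical receptor that binds chemerin without classical signalling and holds it at the cell surface, and Cmklr1 is a signalling receptor of it. Ccrl2 (ENSMUSG00000043953.12, chr9:111054486-111057519) had 326 reads in the bone marrow, and 31322 and 27565 in the spinal cord populations. Its level was 9.82 TPM (95% bounds 8.81 to 10.9), 1091 TPM (95% bounds 1079 to 1104) and 926 TPM (95% bounds 915 to 937). It went from rank 7448 of all genes in the bone marrow to rank 160 in spinal cord monocytes. The rise was 132-fold (98% bounds 116 to 150.5), rank 160 from the top of 10072 active genes by log2 fold change. Between spinal cord monocytes and APCs the log2 fold change was -0.33 (98% bounds -0.36 to -0.30), and it was not called.

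Cmklr1 (ENSMUSG00000042190.12, chr5:113612354-113650426) had 175, 8143 and 8593 reads, or 3.42 TPM (95% bounds 2.95 to 3.97), 186 TPM (95% bounds 182 to 189.7) and 179 TPM (95% bounds 176 to 183). Its rise into the spinal cord was 63.7-fold (98% bounds 53.6 to 76.5). The intervals of the 2 spinal cord libraries overlapped, and the log2 fold change from spinal cord monocytes to APCs was -0.07 (98% bounds -0.12 to -0.02) and 0.03 (98% bounds -0.02 to 0.08) on reads divided by effective length. Ccrl2 had 5.88 times the TPM of Cmklr1 in spinal cord monocytes and 5.16 times in APCs. Chemerin itself, encoded by Rarres2, had 1, 9 and 6 reads in the 3 libraries, and Gpr1, another receptor of chemerin, had 0 reads in each.

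Fpr1 and Fpr2 encode receptors of formylated peptides from bacteria and mitochondria, and Fpr2 also binds annexin A1 and serum amyloid A. Their genes lie head to head on chromosome 17 with 3883 bases between them, Fpr1 (ENSMUSG00000045551.7) at chr17:17876471-17883940 and Fpr2 (ENSMUSG00000052270.7) at chr17:17887824-17893952. Fpr1 had 757, 660 and 662 reads, or 33.2, 32.5 and 29.6 TPM, and the 95% intervals of the 3 levels overlapped. Its log2 fold change was 0.26 (98% bounds 0.08 to 0.44) into the spinal cord on reads, -0.03 on TPM, and -0.14 (98% bounds -0.33 to 0.04) to APCs. Of the 9 receptors, Fpr1 had the smallest fold change on reads from bone marrow to spinal cord monocytes.

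Fpr2 had 3565, 4628 and 3125 reads, or 222 TPM (95% bounds 214 to 229) in the bone marrow, 332 TPM (95% bounds 323 to 342) in spinal cord monocytes and 201 TPM (95% bounds 194 to 208) in APCs. It was highest in spinal cord monocytes, like Ccr1, and came after only 2 other receptors in each library. Its log2 fold changes were 0.84 (98% bounds 0.76 to 0.91) into the spinal cord and -0.71 (98% bounds -0.79 to -0.64) to APCs, and neither was called. The ratio of Fpr2 to Fpr1 TPM was 6.67, 10.2 and 6.80. Fpr3, whose annotated span overlaps that of Fpr2, had 3, 1 and 2 reads, and Fpr-rs3, Fpr-rs4, Fpr-rs6 and Fpr-rs7 had 0 reads in each library.

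The order of the levels differed between the bone marrow and the spinal cord. In bone marrow monocytes it ran Ccr2, Cxcr4, Fpr2, Ccr1, Cx3cr1, Fpr1, Ccrl2, Cmklr1 and Cxcr2, and only the last pair had overlapping 95% intervals. In spinal cord monocytes it ran Ccrl2, Cxcr4, Fpr2, Ccr2, Ccr1, Cmklr1, Cx3cr1, Fpr1 and Cxcr2, and Ccr2 and Ccr1, at 299 and 295 TPM, overlapped. In APCs it ran Ccrl2, Cxcr4, Fpr2, Cmklr1, Ccr1, Ccr2, Cx3cr1, Fpr1 and Cxcr2, and no neighbours overlapped. By TPM, 6 of the 9 receptors were highest in spinal cord monocytes, Ccr2 and Fpr1 in the bone marrow, and Cx3cr1 in APCs. Above 100 TPM were 4 receptors in the bone marrow library, 6 in that of spinal cord monocytes and 7 in that of APCs.

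Counting error alone made the intervals, and a spread between libraries was assumed to see which calls would survive it. With a coefficient of variation of 0.2, Ccr1 and Cxcr4 lost their call in the first step, while Ccr2, Cxcr2, Ccrl2 and Cmklr1 kept theirs, and neither Cx3cr1 nor Ccr2 was called in the second step. With 0.4, Ccrl2 and Cmklr1 were still called in the first step and no receptor in the second. In APCs against bone marrow monocytes, Ccr2, Ccrl2 and Cmklr1 were called with either value.

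Among 33 other chemoattractant receptors, 13 were above 3 TPM in at least 1 library, and 7 had 0 reads in all 3. In the monocyte libraries, 12 were active, of which 8 were called higher (background 13.6%) and 1 lower (background 11.0%), with a median log2 fold change of 3.15 beside -0.17 over all active genes. Ccr7, Cxcr6, Ackr1, C3ar1 and S1pr1, all called higher, were over 3 TPM in spinal cord monocytes but not in the bone marrow. S1pr5, called lower, was over 3 TPM in the bone marrow only. The count and the median of this list therefore follow in part from the threshold. C3ar1, the receptor of complement fragment C3a, rose from 119 to 8440 reads, by 6.60 on the log2 scale (98% bounds 6.30 to 6.92). C5ar1, the receptor of C5a, rose from 43.5 to 161 TPM and was the most abundant of the 33 in spinal cord monocytes. Ptafr, the receptor of platelet-activating factor, rose from 39.8 to 151 TPM. Ackr1, an atypical receptor that binds many chemokines, had 310 reads in spinal cord monocytes and 0 in the bone marrow, so that the former was at least 142-fold higher (floor of 3 reads). Cxcr6, the receptor of Cxcl16, had 1 read against 171, a ratio of 141 (98% bounds 35.0 to 1596). S1pr1 and S1pr5, sphingosine 1-phosphate receptors that guide exit from tissues, moved apart, S1pr1 rising from 6 to 246 reads and S1pr5 falling from 188 to 4. Of the lymphocyte markers, Cd3e went from 1 to 138 reads and Cd4 from 0 to 289. The part of lymphocytes in the rises of Cxcr6 and S1pr1 was not tested.

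From spinal cord monocytes to APCs, 1 of the 12 active receptors of this list was called higher and 1 lower (background 1.94% and 1.66%), and the median log2 fold change was -0.06. Ccr7, the receptor that takes dendritic cells to lymph nodes, rose from 114 to 3594 reads, by 4.82 on the log2 scale (98% bounds 4.52 to 5.15). Ltb4r1, a receptor of leukotriene B4, fell from 82.5 to 23.7 TPM, a log2 difference of -1.81 (98% bounds -1.97 to -1.65). The 7 markers of conventional dendritic cells, which also express Ccr7, summed to 41.2, 22.4 and 35.4 TPM in the 3 libraries, with 1, 3 and 6 of them above 3 TPM, and Zbtb46 had 0.0404, 0.496 and 3.37 TPM. Most of the bone marrow sum was Flt3, which had 37.8, 3.65 and 6.65 TPM. Each of the other markers was higher in APCs than in the bone marrow. Between spinal cord monocytes and APCs, all but Batf3 were higher in APCs. The part of conventional dendritic cells in the rise of Ccr7 was not tested.

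**Figure D5:**
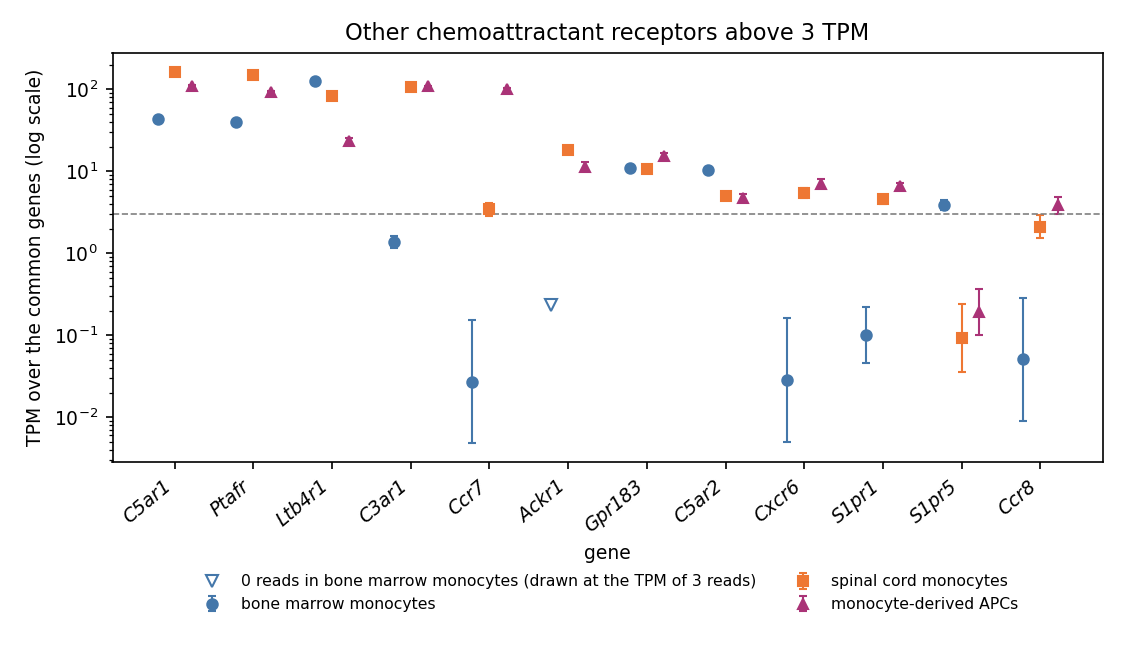
TPM over the common genes (log axis) of 12 of the 13 other chemoattractant receptors above 3 TPM in at least 1 library, in bone marrow monocytes (circles), spinal cord monocytes (squares) and APCs (triangles), with 95% counting intervals. The open triangle stands for 0 reads of Ackr1 in the bone marrow and is drawn at the TPM of 3 reads, and the dashed line is 3 TPM. Ccr7 goes from 3.46 TPM in spinal cord monocytes to 99.8 TPM in APCs.

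The ligands of the 9 receptors moved mostly upward in the spinal cord. Of 22 ligand genes, 17 were active in the monocyte libraries, 12 were called higher and 3 lower (background 13.6% and 11.0%). Their median log2 fold change was 5.05, or 3.96 with the gene at 0 reads set to its bound, beside -0.17 over all active genes. Several ligand genes called higher, among them Ccl12, Cxcl1 and Cxcl3, were over 3 TPM in spinal cord monocytes but not in the bone marrow. Ppbp, called lower, was over 3 TPM in the bone marrow only. The counts and both medians of this list therefore follow in part from the threshold. Cxcl2, a ligand of Cxcr2, was the most abundant in spinal cord monocytes, at 3315 TPM against 33.1 TPM in the bone marrow. Cxcl1 and Cxcl3, ligands of the same receptor, went from 11 to 1021 reads and from 1 to 844 reads. Ccl12, a ligand of Ccr2, had 2 reads in the bone marrow and 630 in spinal cord monocytes, and Ccl4 went from 45 to 6432 reads. Saa3, of the serum amyloid A family, rose from 55.8 to 1561 TPM.

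The 3 ligand genes called lower were Ppbp, Anxa1 and Camp. Ppbp, a platelet chemokine that binds Cxcr2, went from 380 to 3 reads. Anxa1 and Camp, which encode ligands of Fpr2, fell from 776 to 163 TPM and from 70.8 to 6.37 TPM. In APCs against spinal cord monocytes, 0 of 16 active ligand genes were called higher and 2 lower, Ccl2 and Ccl7, beside a background of 1.94% and 1.66%. Both are ligands of Ccr2, and Ccl7 fell from 77.3 to 30.5 TPM. Ccl6, a ligand of Ccr1, had 1035, 1455 and 1664 TPM and was not called in either step. Cx3cl1, the ligand of Cx3cr1, was at or under 2.99 TPM, and Cxcl12, the ligand of Cxcr4, at or under 1.26 TPM in the 3 libraries. Both were under the TPM threshold and could not be called. Cx3cl1 had 0, 27 and 179 reads, 5.86-fold more in APCs than in spinal cord monocytes (98% bounds 3.74 to 9.71). Cxcl12 had 8, 105 and 53 reads.

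Of 29 genes that carry or end the signal of these receptors, all were active in the monocyte libraries, 2 were called higher and 7 lower (background 13.6% and 11.0%), and the median log2 fold change was -0.40, beside -0.17 over all active genes. The genes called higher were Rgs1 and Rgs16, which encode proteins that switch off G protein alpha subunits. Rgs1 went from 4.01 to 1213 TPM, its reads rose by 7.49 on the log2 scale (98% bounds 7.20 to 7.80), and it was not called in APCs, at 1170 TPM. Rgs16 had 211 reads in spinal cord monocytes against 0, at least 96.7-fold higher by the same floor. Of the called genes, Rgs16 passed the TPM threshold in spinal cord monocytes only, and Rgs18 in the bone marrow only. Rgs18 and Rgs14, of the same family, fell by 4.96 and by 1.22 on the log2 scale. Grk5 and Grk6, kinases that desensitize receptors, fell by 2.01 and by 1.69, and Arrb1, an arrestin, and Dock2, an activator of Rac in leukocytes, each fell by 1.14. Rac2, itself a GTPase of leukocyte migration, was the other gene called lower. Gnai2, the main inhibitory G protein alpha subunit of leukocytes, had 1001, 572 and 675 TPM and Cdc42 882, 564 and 509 TPM, and neither was called in either step. In APCs against spinal cord monocytes, none of 28 active genes of this list was called, where 3.61% of all active genes were.

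The genes nearest to a receptor were sought among 10307 active genes by the distance between their pair of log2 fold changes, over 3 libraries only, which describes a likeness and no more. For Ccr2 they were Arhgap26, Ramp1 and Cdkn2d, and 7 genes lay within 0.25 log2 units. For Cx3cr1 they were Rgs12, Ear6 and Stard10, and 6 genes lay within that distance. For Ccrl2 they were Vasn, Hic1 and Ak4, which had 3.09, 5.88 and 9.76 TPM in spinal cord monocytes, far below the 1091 TPM of Ccrl2. The gene nearest to Cmklr1 was Cfb, encoding complement factor B, with 17.0, 966 and 1018 TPM. Fpr1 had 735 genes within 0.25 log2 units and Cxcr4 had 102, so their patterns were common ones.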

How the data were processed

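The authors estimated expression with Salmon 0.14.1 on GENCODE vM22 (mm10), pooling the isoforms of a gene, from 50 bp paired-end reads. They deposited TPM, which they normalized for effective length and library size, and estimated counts of reads, which they did not normalize. The deposited APC values list 22242 genes and those of each monocyte population 54432, so the transcript sets differed. The 22238 common genes were used. TPM was rescaled over them, and the deposited estimated counts were rounded to whole reads. The use of common genes does not undo a difference in how reads were assigned to transcripts. The effective length of a receptor differed between libraries by at most 1.09-fold.

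For each gene, 1 read was added, a gamma distribution was taken for each library and divided by its size factor (median of ratios within the pair of libraries), and the ratio gave the log2 fold change and its bounds. A call needed the percentile 1 or 99 beyond a 2-fold change, after the study's use of GFold, which was not run here. Conditions could not be tested with 1 library each, and variation between animals is in no interval. The script was tested on simulated data. Single values of some genes in these lists are not reported here, although the list counts include them. Symbols and coordinates were read from GENCODE M21 (GRCm38), and 99.0% of identifiers matched it to the version. Promoters are from RefSeq, which matched all 9 receptors.

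The receptors and all lists were chosen with earlier results of these data known. Named genes were the 9 receptors, up to 8 called genes of each list with the largest fold change, its 3 most abundant genes, and the 3 genes nearest to a receptor. Other ligands and receptors (Rarres2, Cx3cl1, Cxcl12, Ccl2, Anxa1, Camp, Ltb4r1, Gpr1, Ccr3, Ccr1l1, Fpr3, the Fpr-rs genes and Rac2) and single markers were named after their values were seen. Statistics ran in scipy 1.17.1, numpy 2.4.6 and pandas 2.3.3 under Python 3.11.15. Plots were made with matplotlib 3.10.9. TMM factors, an alternative, came from edgeR 4.0.16 in R 4.3.3.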

Additional observations from a re-analysis of the deposited data

How the results depend on the processing

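No paired analysis was possible because each population is 1 library. Ccrl2 and Cmklr1 were called higher from bone marrow to spinal cord monocytes under all 12 alternatives of the call. With an assumed coefficient of variation of 0.2, the receptors called were 3 higher in the first step and 0 higher and 0 lower in the second. With 0.4 they were 2 higher and 0 lower in the first, and 0 and 0 in the second. All genes called higher and lower were then 905 and 460 (0.2) or 627 and 228 (0.4) in the first step, against 1369 and 1104, and 87 and 35 or 43 and 14 in the second, against 189 and 162. The other chemoattractant receptors called lower in the second step were 0 with 0.2 and 0 with 0.4. Without a TPM threshold, 2591 genes were called higher in the first step, and 389 higher and 288 lower in the second. Of the other chemoattractant receptors, 16 were then called higher in the first step, and 3 higher and 2 lower in the second. With a threshold of 4, the count of these called lower in the first step was 0. A plain 2-fold change called 331 genes higher and 293 lower in the second step, and 2 receptors lower, Ccr1 being added. Reads divided by effective length called 317 genes and 0 receptors lower in that step, where Cmklr1 turned to 0.033. That step had 235 genes higher under it, against 189.

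Scaling by total reads moved the median log2 fold change of all genes in the first step by -0.16 and gave 1239 genes higher and 1394 lower. All genes of the monocyte libraries shifted them by -0.22. For APCs against bone marrow monocytes, total reads turned the log2 fold change of Fpr1 to -0.0062 and that of Fpr2 to -0.0029, from 0.13 and 0.14. On TPM plus a pseudocount of 1 or 0.1, Fpr1 was -0.16 and -0.17, Fpr2 -0.14 and -0.14, and Ccr1 -0.0403 and -0.0406, from 0.26. Fpr1 in spinal cord against bone marrow monocytes was -0.0314 and -0.0323. The depth limits Cxcr2 most, at 153 reads in the bone marrow.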
